A study of Homo sapiens with 18 samples.

Results

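Solute carriers are membrane proteins that move amino acids, sugars, nucleotides, metals and ions across the plasma membrane and the membranes of organelles. Each carrier gene carries an SLC symbol with a family number, and members of one family share sequence and often a substrate class. In erythroid cells carriers bring in glucose and iron and pass iron on to the mitochondria for heme synthesis, and in cells under hyperosmotic stress carriers for myo-inositol, taurine and neutral amino acids take up compatible osmolytes. The genes described here are those of the readthrough table whose symbol begins with SLC, a number and a letter, apart from SLC38A2. Of the 12704 transcripts with a gene name, 222 are members by this rule. They include 4 genes that carry an SLC name without being protein-coding carriers (SLC7A6OS, SLC2A4RG, SLC22A18AS and SLC26A10P), which hold 7 reads together.

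The values are transcriptional readthrough reads of nascent RNA, taken from the chromatin of K562 cells, a line of chronic myeloid leukemia cells (blast crisis) whose growth requires the Bcr-Abl1 kinase. A readthrough read is a long read whose 3′ end, the position of RNA polymerase II, lies more than 100 nt past the annotated polyadenylation site (PAS). There are 18 libraries, 3 biological replicates in each of 6 conditions. CTRL and CTRLim are untreated cells, the latter prepared with the imatinib libraries. KCl 45min cells received 110 mM KCl for 45 min, a hyperosmotic shock. JTE 1h cells received 5 µM JTE-607, an inhibitor of the CPSF73 endonuclease, for 1 hour. IM 1h and IM 18h cells received 1 µM imatinib, a Bcr-Abl1 inhibitor, for 1 and 18 hours. All 6 conditions share the cell line, and CTRL, KCl 45min and JTE 1h form one library set while CTRLim, IM 1h and IM 18h form the other, so that set and treatment cannot be told apart across sets. Of 12 genes listed as K562 markers, 11 are in the table and all 11 have reads, 7884 in all, led by HBG1 with 4159. Of 8 genes of other blood lineages, 4 are in the table and hold 15 reads, of which CD3D has 13.

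Values are given as reads or as reads per 1000000 reads of the library (RPM). More transcription of a gene and less efficient cleavage of its RNA both raise them, and in these bulk samples fewer cells and less RNA per cell cannot be told apart. The libraries hold between 8422 and 57982 readthrough reads, and this depth limits what can be said of a single carrier. The 222 members have 4943 reads over all libraries, 1.11% of the 447434 readthrough reads in the table. The median member has 7 reads, and the median over all transcripts is 10. There are 49 members with at least 30 reads, 149 with fewer and 24 with none, among them SLC4A1, the band 3 anion exchanger of red cells. The 10 members with the most reads hold 32.7% of the members' reads.

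A read is counted only when the polymerase has passed the PAS, so the signals of carriers that recur below are shown here. Of the 222 annotated transcript ends, 145 (65.3%) hold AATAAA in the last 50 nt, against 60.4% of the 12704 named transcripts. The variant ATTAAA is in 42 (18.9%), against 18.0% of all, and one or the other in 79.3% of members and 74.4% of all. The search read the transcript strand only, and both hexamers can stand in one end. The windows below, from GENCODE 44 transcripts on GRCh38, are printed 5′ to 3′ on the strand of the gene, with the hexamer in capitals.
SLC35A4, chr5:140569051-140569080, plus strand: atcttAATAAAgtcttctaggctgtagggt
SLC7A1, chr13:29509416-29509445, minus strand: tctgcaaattcgAATAAAttctatggcttc
SLC3A2, chr11:62888826-62888855, plus strand: ctgccttcaAATAAAagtcacccctgcatg
SLC2A1, chr1:42925373-42925402, minus strand: aggaAATAAAacaccaaagatatttgtctc
SLC38A1, chr12:46183069-46183098, minus strand: tagtttttaaacATTAAAaaatgtgaacta
SLC25A28, chr10:99610526-99610555, minus strand: cccctggttcctAATAAAaagcctttaaat
SLC38A1 is the one of these with the variant. SLC40A1 and SLC25A11, which are also among the 10 most-read members, hold neither hexamer in the last 50 nt of the annotated end.

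Summed over all members, readthrough of carrier genes was lower per library read after KCl than in CTRL. The 3 CTRL libraries held 366, 348 and 410 RPM, and the 3 KCl 45min libraries 231, 296 and 230 RPM. Every KCl library lay below every CTRL library, and the ratio of the means was 0.674. JTE 1h libraries held 322, 613 and 641 RPM, so that replicate 1 lay below the CTRL libraries and replicates 2 and 3 above them. The ratio to CTRL was 1.40 with all JTE libraries and 1.67 without replicate 1. By the read lengths the paper lists, the median readthrough read was shorter in replicate 1 than in replicates 2 and 3 of KCl 45min and of JTE 1h. In CTRL it was shorter in replicates 1 and 2 than in replicate 3. The bearing of read length on these sums was not tested. In the imatinib set, CTRLim held 452, 380 and 418 RPM, IM 1h 504, 487 and 503 RPM and IM 18h 365, 414 and 388 RPM. IM 1h lay above every CTRLim library (ratio 1.19), and IM 18h overlapped CTRLim (ratio 0.934).

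These sums moved with the readthrough of the whole table. All readthrough reads made up 3.399% ± 0.128 (SD, n = 3) of library reads in CTRL and 2.43% ± 0.268 in KCl 45min. As a share of readthrough reads, carriers took 1.10% ± 0.0526 in CTRL and 1.04% ± 0.0859 in KCl 45min, and the libraries overlapped. The share was 1.15% ± 0.109 in JTE 1h, 1.04% ± 0.0459 in CTRLim, 1.14% ± 0.0256 in IM 1h and 1.05% ± 0.0576 in IM 18h. IM 1h was the one treated condition whose 3 libraries, between 1.11% and 1.15%, all lay above those of its control, between 1.00% and 1.09%. The sums are given without a test because the members were chosen with results of these data known.

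**Figure D1:**
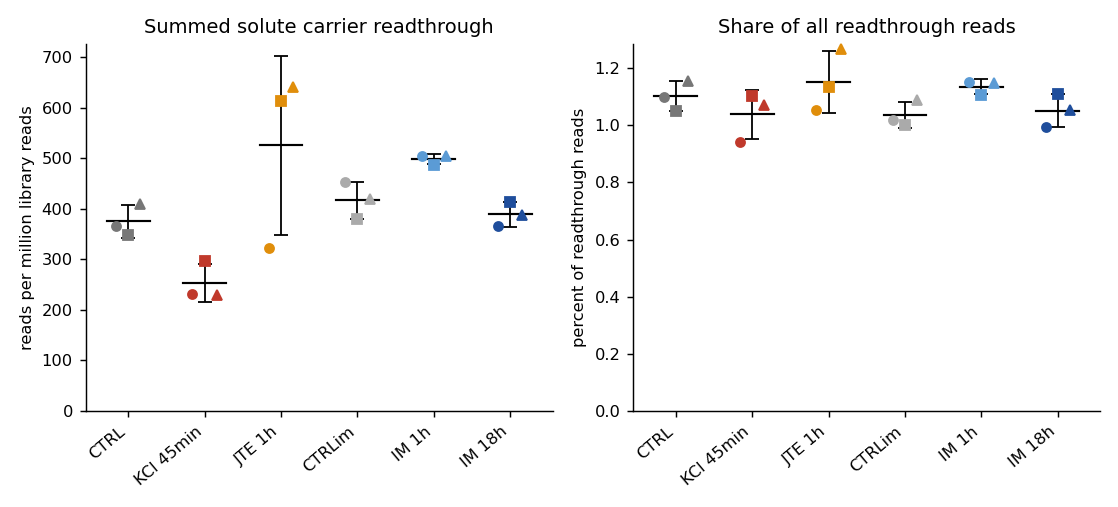
Summed readthrough of the 222 solute carrier genes in each of the 18 libraries, as RPM (left) and as a percent of all readthrough reads (right). Circles, squares and triangles are replicates 1, 2 and 3, and black lines and bars are the mean and SD of 3 libraries. The KCl 45min libraries, between 230 and 296 RPM, lie below all CTRL libraries on the left and overlap them on the right.

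Member by member, the KCl change was mixed. Of the 140 members with a read in CTRL or KCl 45min, 74 had fewer reads per library read in the pooled KCl libraries and 66 had more, that is 52.9% lower, against 54.0% of all transcripts with a read. There were 16 members with reads in CTRL only and 37 in KCl only, where the KCl libraries were deeper. Among the 20 members with at least 10 reads, 13 (65%) were lower, against 62.9% of 1885 transcripts with as many. The median log2 ratio was -1.03 over these members and -0.48 over these transcripts. These 20 passed a minimum of reads that a gene high in either group meets more easily.

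By substrate class, assigned from the family number, the KCl libraries lay below all CTRL libraries for mitochondrial carriers, for carriers of nucleosides and nucleotide sugars, for metal carriers and for the small vesicular, peptide and lysosomal class. All readthrough reads did so too, at 2.15% to 2.68% of library reads in KCl 45min against 3.32% to 3.55% in CTRL. Class sums were not set per readthrough read. The 29 members of the nucleoside and nucleotide sugar class, which load sugars into the Golgi or move nucleosides, had the lowest ratio among classes with over 50 reads in these 6 libraries. They held 66.5, 65.8 and 116 RPM in CTRL and 36.5, 19.1 and 33.2 RPM in KCl 45min, a ratio of 0.358. The 40 mitochondrial carriers, family SLC25, held 97.9 RPM ± 14.5 (SD, n = 3) in CTRL and 57.4 ± 12.6 in KCl 45min. Metal carriers held 34.8 RPM ± 8.28 and 19.3 ± 8.48.

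The 32 amino acid carriers held 36.04, 68.2 and 88.9 RPM in CTRL and 43.8, 121 and 71.1 RPM in KCl 45min, so the libraries overlapped and the mean was 1.22 times that of CTRL. Carriers of organic anions and cations held 9.27 RPM ± 6.60 in CTRL and 14.98 ± 2.16 in KCl 45min, also overlapping. In JTE 1h each of the 6 largest classes overlapped CTRL, and replicate 1 was the lowest JTE library in 5 of them. For amino acid carriers JTE replicates 2 and 3 stood at 154 and 185 RPM and replicate 1 at 54.4 RPM.

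**Figure D2:**
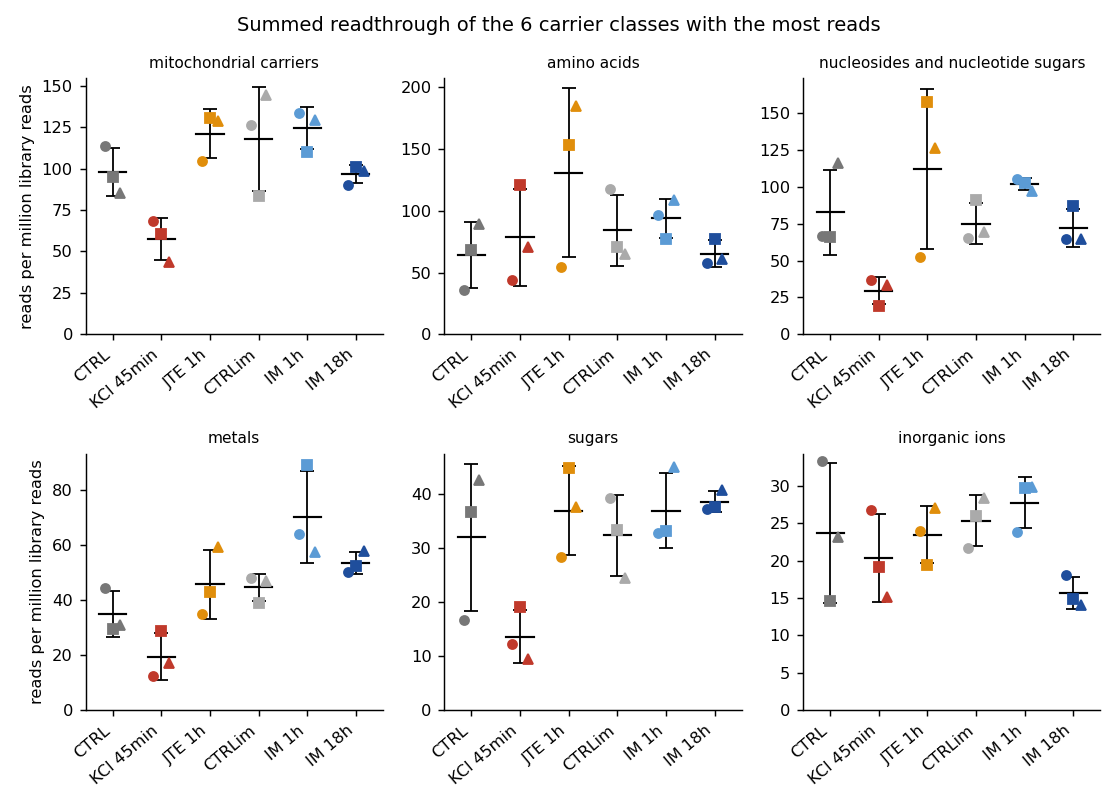
Summed readthrough of the 6 carrier classes with the most reads, in RPM, by condition. Points are libraries (circle, square and triangle for replicates 1, 2 and 3), and lines and bars are the mean and SD of 3. Nucleoside and nucleotide sugar carriers fall to 29.6 RPM in KCl 45min, while amino acid carriers stay at 78.7 RPM with wide spread.

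Only 4 members reached the 30 reads over CTRL and KCl 45min that a test required, and SLC35A4 was lower after KCl. SLC35A4 is named as a member of the nucleotide sugar carrier family. It had 9, 10 and 4 reads in CTRL and 3, 0 and 8 in KCl 45min, which is 24.9, 24.4 and 15.5 RPM against 7.30, 0 and 7.58 RPM. The groups did not overlap, as was so in this direction for 28% of all genes tested, and the log2 fold change was -1.86 (SE 0.654, adjusted p = 0.0271, quasi-likelihood F test of edgeR, Benjamini-Hochberg over 378 genes). That is 1 of 4 members called, where 25.1% of all genes tested were called and 20.9% were called lower. Scaling by total readthrough reads in place of library reads gave -1.32 with 0.158 as its adjusted p in edgeR. This change of scale moved the median log2 fold change over all 378 genes from -0.39 to 0.11. Why the SLC35A4 call was lost was not tested. Without KCl replicate 2 the log2 fold change of SLC35A4 was -1.53 and not called (edgeR, adjusted p = 0.0874). Without CTRL replicate 1 or 2 or KCl replicate 3 fewer than 30 reads were left and SLC35A4 was not tested. The counted stretch of SLC35A4 lies opposite the gene ENSG00000283155, and whether the counting used strand is not given in the sources used here. The stretches of 56 members lie opposite a gene (25.2%, against 25.4% of named transcripts). SLC2A1, SLC37A4, SLC6A6 and SLC22A4, named below, are among them.

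The other 3 tested members were not called. SLC3A2, the heavy chain that pairs with amino acid exchangers of family 7 at the plasma membrane, had 5, 5 and 8 reads in CTRL and 2, 1 and 13 in KCl 45min. Its log2 fold change was -1.10 (SE 0.649, adjusted p = 0.239 from the same edgeR test), and its libraries overlapped at 12.3 RPM in KCl replicate 3 and 12.2 RPM in CTRL replicate 2. SLC25A6, a mitochondrial ADP/ATP carrier in the pseudoautosomal region with near-identical relatives and therefore uncertain after removal of multiply mapped reads, had 10, 7 and 3 reads in CTRL and 8, 3 and 4 in KCl (log2 fold change -0.998, adjusted p = 0.291 from the same edgeR test). SLC7A1, a carrier of arginine and lysine, had 0, 11 and 6 reads in CTRL and 2, 14 and 16 in KCl, a log2 fold change of 0.25 (adjusted p = 0.831 from the same edgeR test), and its sign turned without CTRL replicate 1 or KCl replicate 2.

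Below the minimum, a few carriers stood out by their reads alone, some lower and some higher after KCl. SLC2A1, the glucose transporter GLUT1 of red cells and many others, had 2, 6 and 1 reads in CTRL and none in the 3 KCl libraries. Against a floor of 3 reads over the KCl group, the pooled CTRL level of SLC2A1 was 5.19-fold higher. SLC37A4, the glucose-6-phosphate carrier of the endoplasmic reticulum, had 0, 3 and 1 reads in CTRL and none in KCl. Against the same floor its pooled CTRL level was 2.31-fold higher. Neither figure allows for the counting error of the CTRL reads, so neither is a lower bound. SLC11A1, a divalent metal carrier of phagosomes, had 6, 4 and 2 reads in CTRL and 0, 0 and 2 in KCl. The next gene on its strand, CTDSP1, begins 242 nt past its end, so that reads ending beyond that point lie in that gene. Other carriers went the other way. SLC25A33 had no read in CTRL and 2, 1 and 4 in KCl, and SLC10A5 had 1, 0 and 0 reads in CTRL and 2, 2 and 8 in KCl. SLC25A12 and SLC39A10 also had reads in KCl and none in CTRL. All carriers of this paragraph except SLC2A1, and SLC6A6 below, were chosen after their values were seen.

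Of the 5 osmolyte carriers listed, 2 are in the table, and neither reached the minimum. SLC6A6, the taurine transporter, had 0, 2 and 1 reads in CTRL and 5, 4 and 2 in KCl 45min, which is 0, 4.87 and 3.87 RPM against 12.2, 12.8 and 1.89 RPM. KCl replicates 1 and 2 lay above the CTRL libraries and replicate 3 within them. JTE 1h held 13.1, 1.95 and 5.23 RPM of SLC6A6. SLC5A3, the sodium-coupled myo-inositol transporter, had 0, 2 and 2 reads in CTRL and 2, 3 and 3 in KCl, overlapping, and its counted stretch lies inside MRPS6 and ENSG00000272657 on the same strand. Pooled, the 2 osmolyte carriers held 6.80 RPM in CTRL, 10.7 in KCl 45min, 15.6 in JTE 1h and 15.05 in CTRLim. A level above CTRL was thus not particular to KCl. Of 18 carriers listed for volume regulation, among them the cation chloride cotransporters of family 12, 11 are in the table, and they held 4 reads in CTRL and 8 in KCl (3.88 and 4.49 RPM pooled). The amino acid list of 23 carriers has 22 in the table, and 14 had reads in these 6 libraries, 8 with more per library read in KCl and 6 with fewer. Among 27 other genes of osmotic regulation, such as NFAT5, the WNK kinases and the LRRC8 anion channels, 22 are in the table, none reached the minimum, and 10 of the 19 with reads were higher in KCl. A list of 42 other transport genes had 1 tested, which was not called by edgeR.

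**Figure D3:**
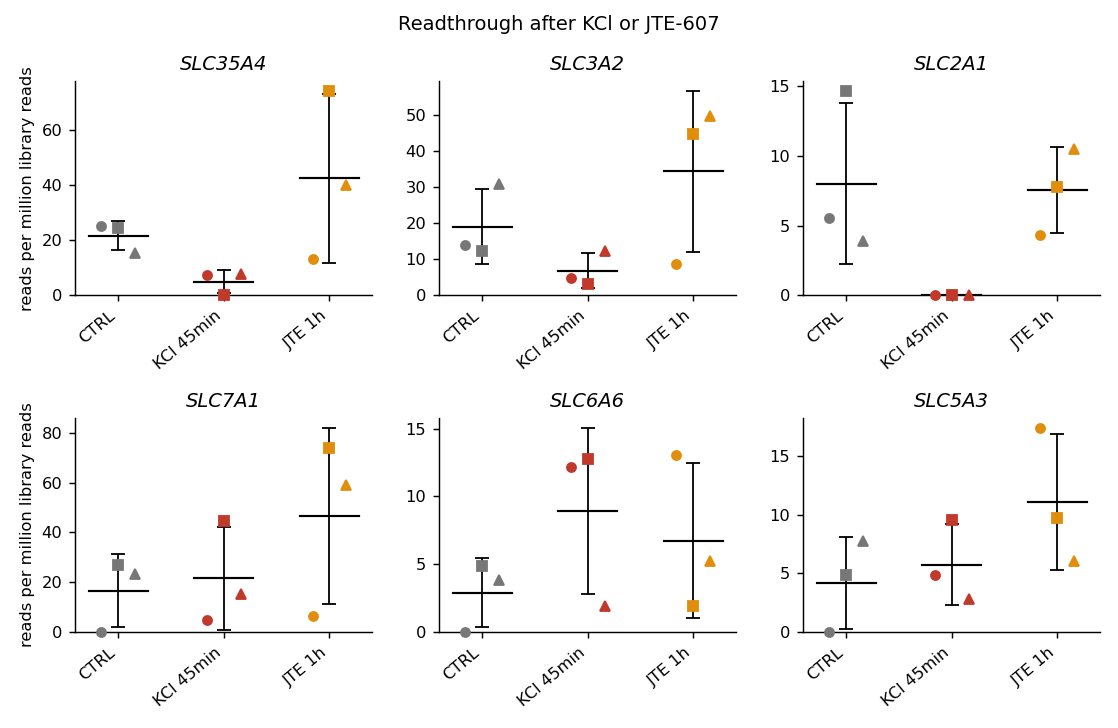
Readthrough of 6 carriers in CTRL, KCl 45min and JTE 1h, in RPM. Points are libraries (circle, square and triangle for replicates 1, 2 and 3), and lines and bars are the mean and SD of 3, cut at 0. SLC35A4 averages 21.6 RPM in CTRL and 4.96 RPM in KCl 45min, SLC2A1 has no read in the KCl libraries, and SLC6A6 has 2 of 3 KCl libraries above CTRL.

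JTE-607 was compared with CTRL as the inhibitor of the cleavage enzyme. Of 6 members tested 0 were called by edgeR, and DESeq2 called 0 as well, while 1 had an unadjusted p under 0.05. Over all genes, 0.103% of 969 genes were called. That member was SLC7A1, with 0, 11 and 6 reads in CTRL and 3, 38 and 68 in JTE 1h. In RPM these are 0, 26.8 and 23.2 against 6.53, 73.9 and 59.3, so JTE replicates 2 and 3 exceeded all CTRL libraries and replicate 1 did not. Its log2 fold change was 1.505 (SE 0.730, adjusted p = 0.440, edgeR's quasi-likelihood test), and without JTE replicate 1 it was 1.98 (edgeR, adjusted p = 0.0479), when 69 genes in all were called. SLC35A4 (6, 38 and 46 reads in JTE 1h) and SLC3A2 (4, 23 and 57 reads) had the same order of libraries, with log2 fold changes of 0.95 and 0.94 (edgeR, adjusted p = 0.563 and 0.606). SLC25A5 stood at 0.60, SLC25A6 at -0.19 and SLC5A6 at -0.09.

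Between the treatments, KCl 45min and JTE 1h differed for 2 of 6 members tested, both lower in KCl, where 34.1% of 999 genes were called lower. SLC35A4 had a log2 fold change of -2.85 (SE 0.719, adjusted p = 6.55e-04, edgeR's quasi-likelihood test) with groups that did not overlap, against 37.7% of genes that lay lower in this way. SLC3A2 had -2.13 (SE 0.688, adjusted p = 0.00861 from the same edgeR test), and KCl replicate 3 at 12.3 RPM lay above JTE replicate 1 at 8.71 RPM. Within same-numbered pairs KCl was the lower each time, at 4.87, 3.19 and 12.3 RPM against 8.71, 44.7 and 49.7 RPM. The SLC3A2 call was lost without KCl replicate 1 or 2 or JTE replicate 3 (edgeR, adjusted p from 0.0508 to 0.116). All 6 members tested had a negative log2 fold change, with a median of -1.54 against -1.21 over all genes. Under TMM scaling, which is meant to remove a shared shift, the medians were -0.47 and -0.18 and 0 members were called. With TMM scaling 50 of the 164 genes called in this contrast were higher in KCl, against 12 of 353 with library reads as the scale.

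**Figure D4:**
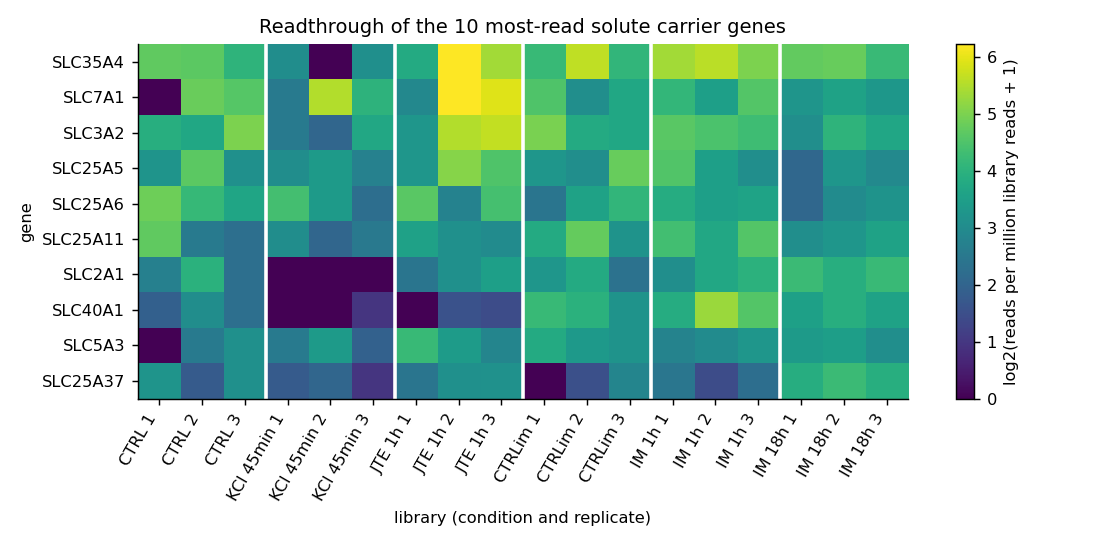
Readthrough of the 10 solute carrier genes with the most reads over all libraries, as log2 of RPM plus 1, with 1 column for each of the 18 libraries and white lines between conditions. SLC2A1 is at 0 in all KCl 45min libraries, SLC7A1 and SLC3A2 are brightest in JTE 1h replicates 2 and 3, SLC35A4 is brightest in JTE 1h replicate 2, and SLC25A37 is highest in the IM 18h libraries.

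After 1 hour of imatinib 0 of 13 members tested were called by edgeR or DESeq2, 1 had an unadjusted p under 0.05, and 1.52% of 988 genes were called in all. Of these 13 members 10 had a positive log2 fold change, with a median of 0.39 against 0.19 over all genes. The metal, nucleoside and nucleotide sugar, organic ion and monocarboxylate classes lay above all CTRLim libraries, the last with 4 reads in CTRLim and 19 in IM 1h. The vesicular, peptide and lysosomal class lay below them, at a mean of 2.40 RPM against 4.72 RPM, from 5 and 6 reads. All readthrough reads, at 4.37% to 4.40% of library reads in IM 1h, overlapped CTRLim, at 3.79% to 4.44%. Metal carriers held 47.9, 38.9 and 46.7 RPM in CTRLim and 63.9, 89.0 and 57.3 RPM in IM 1h. The metal carrier with the most reads was SLC40A1, ferroportin, which exports iron from cells. It had 4, 8 and 4 reads in CTRLim and 9, 22 and 18 in IM 1h, that is 17.4, 14.8 and 8.13 RPM against 13.4, 38.4 and 22.4 RPM, with overlap at replicate 1. Its log2 fold change was 0.91 (SE 0.416, adjusted p = 0.294, edgeR's quasi-likelihood test). With CTRL as the control it was 2.26 and called (adjusted p = 0.00889 from the same edgeR test), and CTRL, of the other library set, had only 1, 3 and 1 reads.

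After 18 hours of imatinib SLC25A37 was higher than in CTRLim. It encodes mitoferrin-1, which takes iron into mitochondria of developing red cells. It had 0, 1 and 3 reads in CTRLim, 3, 1 and 3 in IM 1h and 13, 23 and 19 in IM 18h. In RPM the IM 18h libraries stood at 13.8, 18.0 and 14.1, above every library of the other conditions, of which the highest was 8.32 RPM in CTRL replicate 1. The log2 fold change against CTRLim was 2.23 (SE 0.612, adjusted p = 0.00898, edgeR's quasi-likelihood test over 1386 genes). It was the 1 member called of 17 tested, where 5.19% of all genes were called higher and 14.1% in either direction. DESeq2 called 0 of the 17, and edgeR 0 without CTRLim replicate 2, when its adjusted p was 0.111. With CTRL as the control its log2 fold change was 1.37 and not called (edgeR, adjusted p = 0.0934).

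Other carriers known from erythroid cells moved less or had too few reads. SLC2A1 had 2, 7 and 2 reads in CTRLim and 17, 18 and 24 in IM 18h, which is 8.70, 12.96 and 4.06 RPM against 18.1, 14.1 and 17.8 RPM. The groups did not overlap, as for 13.3% of all genes tested in this direction, and the log2 fold change of 0.92 did not pass (adjusted p = 0.199 from edgeR). SLC40A1 stood at -0.08, with 10, 18 and 15 reads in IM 18h. SLC22A4, an organic cation carrier that takes up ergothioneine, had 0, 1 and 0 reads in CTRLim, 5, 1 and 2 in IM 1h and 6, 11 and 11 in IM 18h, under the minimum against CTRLim. Its neighbour on the same strand of chromosome 5, the carnitine carrier SLC22A5, had 1, 0 and 3 reads in CTRLim, 2, 1 and 4 in IM 1h and 12, 7 and 13 in IM 18h (log2 fold change against CTRLim 1.46, adjusted p = 0.183 from edgeR). These neighbours were named after their values were seen. Their class, carriers of organic anions and cations, held 8.70, 11.1 and 10.2 RPM in CTRLim and 30.9, 21.9 and 29.6 RPM in IM 18h, 2.75 times as much, and the groups did not overlap. SLC22A4 and SLC22A5 are the larger share of those reads, and the 11 other members had 8 reads in CTRLim and 37 in IM 18h, 1.78 times as much per library read, a split chosen after seeing the data.

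Of 15 erythroid carriers listed, 13 are in the table, 3 were tested at 18 hours and 1 was called higher. Of the 11 with reads, 6 had more per library read in the pooled IM 18h libraries and 5 had fewer. Carriers of inorganic ions held 21.8, 25.9 and 28.4 RPM in CTRLim and 18.1, 14.9 and 14.1 RPM in IM 18h, all lower. All readthrough reads lay lower as well, at 3.675% to 3.737% of library reads in IM 18h against 3.793% to 4.438% in CTRLim. The class of vitamins, cofactors and heme was also lower without overlap, at 13.05, 14.8 and 16.25 RPM in CTRLim and 5.32, 5.48 and 7.41 RPM in IM 18h. Among the amino acid list, SLC36A1, a proton-coupled carrier of lysosomes, had 0, 0 and 4 reads in CTRLim and 14, 9 and 5 in IM 18h (log2 fold change 1.30, adjusted p = 0.296 from edgeR), while SLC3A2 and SLC7A1 stood at -0.42 and -0.33, and neither was called. SLC5A3 stood at -0.09. In the list of other transport genes ABCB10, a mitochondrial transporter of erythroid cells, was called higher (log2 fold change 1.93, SE 0.593, adjusted p = 0.0199 from edgeR), and 0 of 3 tested genes of osmotic regulation were called.

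**Figure D5:**
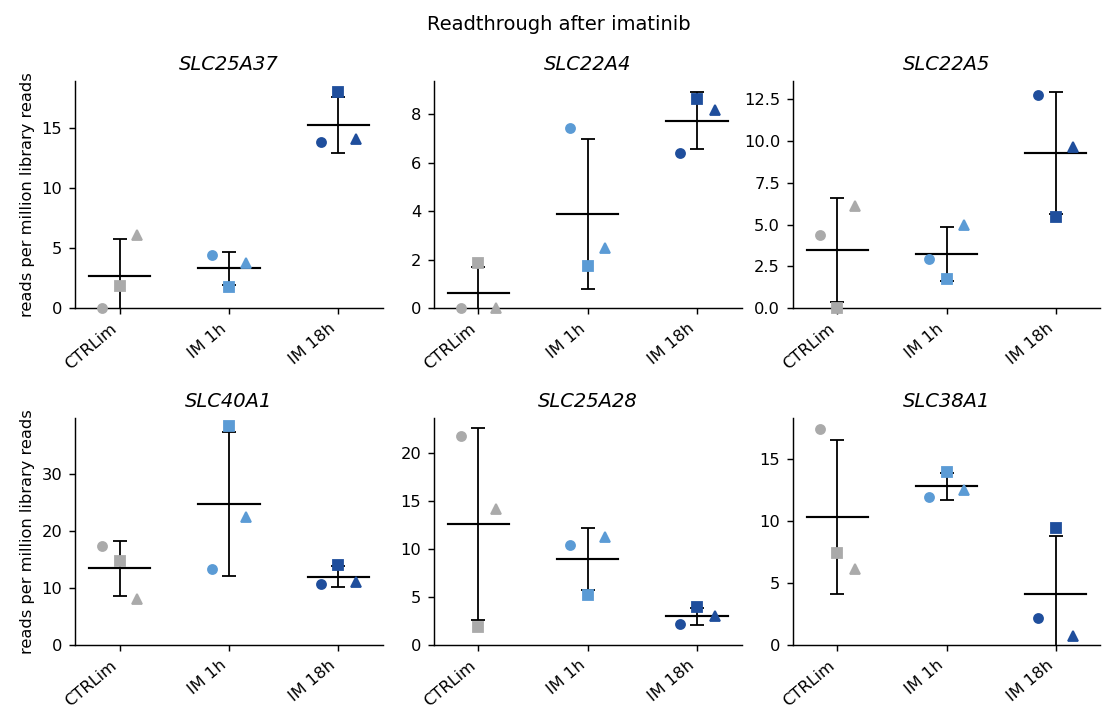
Readthrough of 6 carriers in CTRLim, IM 1h and IM 18h, in RPM. Points are libraries (circle, square and triangle for replicates 1, 2 and 3), and lines and bars are the mean and SD of 3, cut at 0. SLC25A37 averages 2.65 RPM in CTRLim, 3.31 in IM 1h and 15.3 in IM 18h, while SLC25A28 averages 8.95 RPM in IM 1h and 3.00 in IM 18h.

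The 2 imatinib times were compared directly, and 5 of 25 members tested differed. SLC25A37 was higher at 18 hours (log2 fold change 2.13, SE 0.508, adjusted p = 0.00103, edgeR's quasi-likelihood test over 1720 genes), where 4.19% of genes were called higher. Its libraries did not overlap, as for 8.49% of genes in this direction, and it was called with each of the 16 alternatives run. Lower at 18 hours were SLC40A1 (-0.99), SLC35A4 (-0.75), SLC25A28 (-1.54) and SLC38A1 (-1.57), where 14.1% of genes were called lower and 26.3% lay lower without overlap. SLC25A28, mitoferrin-2, which takes iron into mitochondria outside the erythroid lineage too, had 7, 3 and 9 reads in IM 1h and 2, 5 and 4 in IM 18h. In RPM the groups did not overlap, with at least 5.23 in IM 1h and at most 3.91 in IM 18h (adjusted p = 0.0310 from edgeR). SLC38A1, a sodium-coupled glutamine carrier, had 8, 8 and 10 reads in IM 1h and 2, 12 and 1 in IM 18h, and in RPM IM 18h replicate 2 at 9.39 stayed below the lowest IM 1h library at 11.9 (adjusted p = 0.0178 from edgeR). SLC35A4 had 27, 27 and 25 reads in IM 1h and 24, 34 and 24 in the deeper IM 18h libraries, 39.4 RPM ± 7.999 (SD, n = 3) against 23.3 ± 4.82 (adjusted p = 0.0397 from edgeR). SLC40A1 overlapped between the times (adjusted p = 0.0342 from edgeR). The calls of SLC40A1 and SLC38A1 were lost without IM 1h replicate 2 or 3 or IM 18h replicate 1 or 3, and that of SLC35A4 without any 1 of the IM 1h libraries or IM 18h replicate 3 (edgeR, adjusted p from 0.05004 to 0.341 over the 3 genes). Without IM 18h replicate 2, SLC38A1 fell under the minimum of reads and was not tested. SLC25A28 had too few reads to be tested with any library left out, and 7 of its 9 refits lost the call. The median over all 1720 genes was -0.30. TMM scaling moved it to -0.01, and then SLC25A37 and SLC22A5 were called higher and none of the 4 lower members was called, while 111 of 203 genes called in all were higher, against 72 of 315 with library reads as the scale.

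The untreated conditions differed for 0 of 6 members tested by edgeR, with 0 at an unadjusted p under 0.05 and 0 by DESeq2, where 10.6% of 472 genes were called. SLC35A4 had 4, 26 and 8 reads in CTRLim and 9, 10 and 4 in CTRL. CTRLim replicate 2 at 48.1 RPM lay apart from the other CTRLim libraries at 17.4 and 16.2 RPM, so that the level of SLC35A4 against CTRLim depends on it.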

How the data were processed

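Reads of 18 K562 libraries were mapped by the authors with minimap2 to GRCh38.p14, after cutadapt and before removal of duplicates by their molecular identifiers and of polyadenylated reads, multiply mapped reads and splicing intermediates. The deposited values are raw readthrough counts, 1 transcript per gene. RPM and library sizes used here take the reads the study lists per library without splicing intermediates.

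Transcripts were matched to GENCODE 44 (347 of 13051 unmatched). edgeR 4.0.16 (quasi-likelihood) in R 4.3.3 tested genes with at least 30 reads over the 6 libraries of a comparison, with Benjamini-Hochberg adjustment over all of them and 0.05 as the threshold. SEs were derived from the F statistic. DESeq2 1.42.0 was an alternative. Scripts were tested on simulated data. For KCl against CTRL, edgeR recovered 9.5% of genes changed by 1 on the log2 scale and 81% of those changed by 2. For IM 18h against CTRLim it recovered 19% and 86.5%. A member that was not called may therefore still have changed.

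The members, lists and classes were chosen with earlier results of these data known. Named genes are the 10 members with the most reads, called members, and members of the osmolyte, volume, erythroid and amino acid lists with at least 30 reads. Outside this rule, SLC5A6, SLC4A1, SLC35B3, SLC25A36 and the genes listed as not being protein-coding carriers are also named. Further ones are marked as chosen later. Alternatives changed the scale, the minimum, the tool, the libraries and the control. Same-numbered KCl and JTE libraries deviated together (correlations 0.272, 0.228 and 0.133 over 999 genes), so the numbers were taken to pair them, and in the other 6 comparisons they were not. The fold changes and p-values printed for KCl against JTE 1h come from the fit without this pairing. With the replicate number as a block, edgeR called the same 2 members, SLC35A4 and SLC3A2. Gene body reads were not used here. Floors cover counting error in a group without reads, and not in the group it is set against. Figures were drawn with matplotlib 3.10.9 in Python 3.11.15.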

Additional observations from a re-analysis of the deposited data

Results flagged for a closer look

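The response to imatinib differed between 1 and 18 hours for 5 carriers in the direct comparison of the times (edgeR's quasi-likelihood test, both times set against the same CTRLim libraries in the values given beside it). SLC25A37 was higher at 18 hours than at 1 hour by 2.13 on the log2 scale. Too few reads kept it from a test of IM 1h against CTRLim, and its pooled level was 3.42 RPM there and 3.17 RPM in CTRLim. SLC40A1 differed by -0.99, with 0.91 at 1 hour and -0.08 at 18 hours against CTRLim. SLC35A4 differed by -0.75, with 0.37 at 1 hour and -0.34 at 18 hours. SLC25A28 differed by -1.54, with -0.16 at 1 hour and no test at 18 hours. SLC38A1 differed by -1.57, with 0.52 at 1 hour and no test at 18 hours. The effects against CTRLim themselves passed the threshold for SLC25A37 at 18 hours alone. Between the times, 4.19% of all 1720 genes tested were called higher at 18 hours and 14.1% lower, with a median log2 fold change of -0.30. With TMM scaling, which is meant to remove a shared shift, none of the lower calls remained.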

How the results depend on the processing

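The summed carrier reads of KCl 45min were 0.674 times those of CTRL per library read and 0.943 times per readthrough read. Leaving out 1 library gave 0.616 to 0.707 for KCl, 1.25 to 1.67 for JTE 1h (the highest without its replicate 1), 1.14 to 1.25 for IM 1h and 0.894 to 0.975 for IM 18h, the last 3 chosen after seeing the data. For KCl against CTRL, 0 members were called with TMM scaling, total readthrough reads, no filter or DESeq2 with either scale, 2 with at least 10 reads (SLC11A1 and SLC35A4), and 0 to 1 without 1 library (SLC35A4 had too few reads for a test in 3 of these 6 fits). For KCl against JTE 1h, 0 were called with TMM scaling, total readthrough reads or DESeq2's own size factors, 4 with at least 10 reads, no filter or all 18 libraries in one fit, and 1 to 5 without 1 library, the most without JTE replicate 1. For JTE 1h this was 0 to 1, for IM 18h against CTRLim 0 to 2 and for IM 18h against IM 1h 1 to 5. For IM 1h, 1 was called with CTRL as the control. For IM 18h against CTRLim, 2 were called with TMM scaling, total readthrough reads, mapped reads, no filter or all 6 untreated libraries as the control, 3 with at least 10 reads or with CTRL as the control (then SLC22A5 and SLC35B3 higher and SLC25A6 lower, without SLC25A37), and 0 with DESeq2. For IM 18h against IM 1h, 2 were called with TMM scaling or total readthrough reads, 3 with mapped reads or at least 10 reads, and 1 with no filter, DESeq2 or all 18 libraries in one fit. SLC25A37 alone was called there in each of the fits with 1 call. For CTRLim against CTRL, 1 was called (SLC25A36) with at least 10 reads. The causes were not tested.

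With the replicate number as a block, the counts were 1 for KCl against CTRL, 0 for JTE 1h, 2 for KCl against JTE 1h, 0 for IM 1h, 1 for IM 18h against CTRLim, 4 for IM 18h against IM 1h and 0 for CTRLim against CTRL, and the block moved no count by over 1.5 times. The call lost under it was SLC25A28, IM 18h against IM 1h (edgeR, -1.53, adjusted p = 0.0540). In the 6 comparisons where numbers did not pair libraries, 0 to 4 of the 6 libraries correlated best with the one of their own number. Of 367 refitted log2 fold changes of named carriers, 289 kept direction and side of the threshold, 60 lost a call, 2 gained one and 16 changed sign, all of them uncalled. For SLC7A1 after KCl the sign changed without CTRL replicate 1 (-0.34) or KCl replicate 2 (-0.54), in a range without 1 library of -0.54 to 0.93. For SLC5A6 after JTE-607 it did without CTRL replicate 3 (0.52, the highest, against -0.54 at the lowest) or JTE replicate 1 (0.34), and for SLC25A6 without CTRL replicate 1 or JTE replicate 2 (both 0.19), in a range of -0.40 to 0.19. For SLC25A28 at IM 1h it did with all 6 untreated libraries (0.041). For SLC35A4 at IM 18h it did without CTRLim replicate 2 (0.47) (range -0.67 to 0.47 without 1 library) or with CTRL as the control (0.064). For SLC40A1 at IM 18h it did with TMM scaling (0.033), total readthrough reads (0.0091), mapped reads (0.035), without CTRLim replicate 1 (0.052) or 2 (0.11, in a range from -0.37), and with CTRL (1.28) or all untreated libraries (0.39) as the control. With TMM scaling 25 of 75 genes called after KCl were higher, against 16 of 95. Depth limited the tests to 4 to 25 members per comparison.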
